A study of Homo sapiens with 4 samples.

Results

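Histones are the proteins around which DNA is wound, and the 86 histone genes described here were all the gene symbols that begin with HIST1H to HIST4H, H2AF, H3F3 or H1F among the 19974 symbols listed for each library. Of these, 70 had HIST symbols and are called here the clustered, replication-dependent genes. The other 16 were variant histone genes (H2AF, H3F3 and H1F symbols). Both classes were set by symbol alone, not by how each gene is expressed. RNA was sequenced from HCT116, an established human colon cancer cell line, 36 h after transfection with 100 nM of a non-targeting control siRNA (si-NC) or of an siRNA against the long noncoding RNA LINC00152 (si-152). There were 2 biological replicates per group and 4 libraries in all, and the untransfected line was not among them. All results therefore hold for 1 cell line that had taken up an siRNA in both groups, and LINC00152 itself was not analysed here.

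Replication-dependent histone genes supply the bulk histones that package newly copied DNA. Their mRNAs are made mainly in S phase, have no introns and usually end in a conserved stem-loop instead of a poly(A) tail. The stem-loop is bound by SLBP, which carries the mRNA through 3′ end processing, export and translation. Variant histones are made through the whole cell cycle from ordinary polyadenylated mRNAs and replace or supplement the bulk histones, as H3.3 does in active chromatin, H2A.Z around promoters and H2A.X at DNA breaks.

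All but 1 of the replication-dependent genes lay in the known histone clusters in the GENCODE release 29 annotation of GRCh38. Of the 70 genes, 55 lay on chromosome 6 between 25726132 and 27893843 and 14 on chromosome 1. There the HIST2 genes lay between 149782689 and 149887916 and the HIST3 genes between 228424845 and 228460470. The remaining gene, HIST4H4, lay on chromosome 12. A transcript with a single exon was annotated for 69 of them. The 16 variant genes were scattered, for example H2AFZ on chromosome 4, H3F3B on chromosome 17 and H1F0 on chromosome 22. For 32 of the replication-dependent genes every annotated transcript stopped at the coding sequence, so that no 3′ end could be read. Of the 38 that had more, 32 held the histone stem-loop (2 G, 3 pyrimidines, a T-rich loop, 3 purines and 2 C, read on the transcript's strand), against 79 of all 19940 protein-coding genes (0.396%). Among the variant genes only H2AFX, which encodes H2A.X, held one. The sequences below are those of genes whose levels are described further on, with the 16-base stem-loop in capitals and 5 bases on each side, 5′ to 3′. All lie in the exon that ends the coding sequence, downstream of the stop codon.

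HIST1H2AC: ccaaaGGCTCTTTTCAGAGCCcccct
HIST1H2BD: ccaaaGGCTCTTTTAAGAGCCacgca
HIST3H2A: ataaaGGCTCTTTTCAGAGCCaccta
HIST2H2AA3: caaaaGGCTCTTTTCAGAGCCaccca
HIST2H2BF: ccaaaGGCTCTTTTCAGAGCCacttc
HIST1H4E: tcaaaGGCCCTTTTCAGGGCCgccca
HIST1H3G: aaaaaGGCTCTTTTAAGAGCCgccta
H2AFX: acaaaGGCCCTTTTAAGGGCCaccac

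On GRCh38 these 26-base stretches lie at chr6:26124664-26124689 on the plus strand for HIST1H2AC and at chr6:26158582-26158607 on the plus strand for HIST1H2BD. They lie at chr1:228457364-228457389 on the minus strand for HIST3H2A, at chr1:149842218-149842243 on the minus strand for HIST2H2AA3 and at chr1:149811880-149811905 on the minus strand for HIST2H2BF. They lie at chr6:26204996-26205021 on the plus strand for HIST1H4E, at chr6:26270918-26270943 on the minus strand for HIST1H3G and at chr11:119094893-119094918 on the minus strand for H2AFX. Across the 33 histone genes with a stem-loop there were 7 different stem-loops, and the form printed for HIST1H2AC was shared by 17 of the genes. The stem-loop of HIST3H2A, one of the higher genes of the class, and those of HIST2H2AA3 and HIST2H2BF were identical to that of HIST1H2AC, and that of HIST1H3G, listed at 0 in every library, was identical to that of HIST1H2BD. In these examples the stem-loop sequence did not separate the genes with reads from the gene without.

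Many promoters of the class held known histone promoter elements, but these differed between histone types. Among the 79 members with a promoter in the RefSeq table (GRCh38.p14, 250 bases before to 50 after the start), the octamer ATTTGCAT, searched on both strands, was found in 26 of 65 replication-dependent promoters, in 1 of 14 variant promoters, that of H3F3B, and in 1.80% of all 27305 promoters. It fell in 11 of 16 H2A and 14 of 18 H2B promoters, in 1 of 12 H3 promoters and in none of the 6 H1 and 13 H4 promoters. CCAAT, on both strands, was found in 55 of 65 replication-dependent, 11 of 14 variant and 35.7% of all promoters. Every replication-dependent H1, H2A, H2B and H3 promoter held it, but only 3 of 13 H4 promoters (23.1%) did, a share below that of all promoters. TATAAA, on both strands, was found in 43 of 65 replication-dependent, 4 of 14 variant and 12.0% of all promoters. The 3 motifs share no whole copy of each other, and a match is only a match of letters.

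The level of each gene was its deposited value, for which no unit was named and which was inferred from the values to be FPKM. FPKM is fragments per kilobase of transcript, scaled to the fragments mapped in the library. It corrects for gene length so that genes can be compared, and the comparisons between genes below rest on this inference. The sum over all genes was 424754 to 534311 FPKM per library, and 14589 to 14686 genes were above 0. Read totals per library are unknown, so no counting error can be given, and their number limits the precision of every low value. Of 9 colon epithelial markers, 6 were above 1 FPKM in all 4 libraries, while CDX1 and CEACAM5 were listed at 0 in every library and VIL1 was above 0 only in si-NC replicate 2, at 0.0567. Of 6 markers of blood, endothelial and connective tissue cells, COL1A1 alone was above 1 FPKM, and the 6 summed to 7.09 to 8.11 FPKM. How the RNA was selected before sequencing is not given in the sources used here. Symbols of well-known RNAs without a poly(A) tail, such as RN7SK, RMRP and the small nuclear RNAs, were 0 in number in the tables. Symbols of mitochondrially encoded genes were also 0 in number, so the symbols listed do not tell how the RNA was selected.

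Variant histone genes summed to far more FPKM than replication-dependent histone genes in every library. The part of RNA selection in this difference was not tested. The 16 variant genes summed to 2343 FPKM in si-NC replicate 1, 2582 in si-NC replicate 2, 2256 in si-152 replicate 1 and 2426 in si-152 replicate 2. In the same order, the 70 replication-dependent genes summed to 250.3, 234.5, 194.1 and 250.4 FPKM. The variant sum exceeded the replication-dependent sum 9.36-fold to 11.6-fold, although the class held fewer genes. As a share of all FPKM, variants made up 0.478% to 0.531% and replication-dependent genes 0.0439% to 0.0541%. The lowest replication-dependent sum was that of si-152 replicate 1, and the 3 other libraries lay close together.

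The classes were also set side by side for each histone type. For the linker histone H1, which binds the DNA between nucleosomes, the 6 clustered genes summed to 90.5 ± 19.4 FPKM (SD, n = 4 libraries) and the 4 variant genes to 915 ± 49.0. For H2A the 17 clustered genes summed to 51.6 ± 7.28 FPKM and the 9 variant genes to 867 ± 95.9. For H3, of which each nucleosome holds a pair of copies, the sums were 7.38 ± 0.495 FPKM over 14 clustered genes against 620 ± 13.7 over 3 variant genes. H2B and H4 had no variant symbol under the rule, and their 18 and 15 clustered genes summed to 76.9 ± 4.50 and 6.06 ± 1.40 FPKM. The summed FPKM of the clustered H3 genes and of the clustered H4 genes was below that of the clustered H2A genes and H2B genes in each library.

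**Figure D1:**
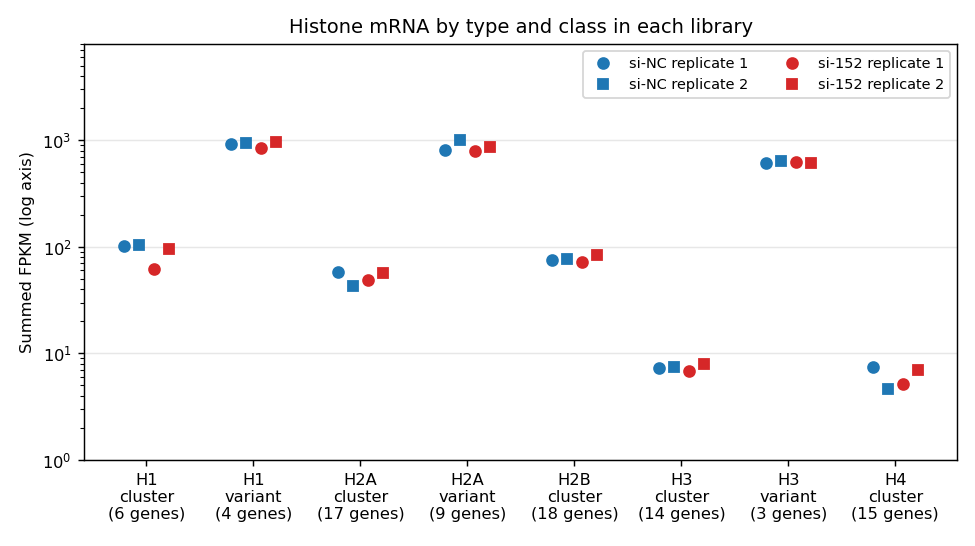
Summed FPKM per library (vertical, log axis) for each histone type, split into the clustered replication-dependent genes and the variant genes, with the number of genes under each group. Circles are replicate 1, squares replicate 2, blue si-NC and red si-152. Variant H1, H2A and H3 lie between 605 and 1004 FPKM in every library, above all clustered groups, of which H3 and H4 stay below 8 FPKM.

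Most replication-dependent genes had little or no signal. Of the 70, 20 were listed at 0 in all 4 libraries, 50 were above 0 in at least 1 library and 26 in all 4. Only 15 reached 1 FPKM in every library, and 40 did so in none. A few genes carried the class, since the 5 highest made up 81.3% to 83.6% of its sum. Few values above 0 were very low in the short genes. Among 33 replication-dependent genes with a transcript under 500 bases, the lowest value above 0 in a library was 0.281 FPKM in si-NC replicate 1 and 0.297 in si-152 replicate 1. In si-NC replicate 2 and si-152 replicate 2 a single gene lay lower, at 7.06e-05 and 0.104, and the next value was 0.271 and 0.262.

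HIST1H1C, the gene of linker histone H1.2, was the highest of the class. It was at 100.5 FPKM in si-NC replicate 1, 100.4 in si-NC replicate 2, 60.1 in si-152 replicate 1 and 93.4 in si-152 replicate 2. HIST1H2BK, an H2B gene, came next at 49.8, 46.1, 45.6 and 45.2 FPKM in the same order of libraries. It was the steadiest of the 5, and its range did not overlap that of HIST1H1C above it or of HIST3H2A below it. HIST3H2A, an H2A gene of the small chromosome 1 cluster, was at 28.3, 18.7, 20.6 and 27.2 FPKM. HIST1H2BD, another H2B gene, was at 15.7, 16.7, 17.9 and 26.1 FPKM, a range that overlapped that of HIST3H2A. HIST1H2AC, an H2A gene, was at 14.9, 12.6, 13.7 and 15.3 FPKM. Below it the level dropped 4.11-fold to HIST2H2AA3, and from there down every gene overlapped its neighbour in the order of the 20 genes tested.

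Several of these genes are known to give polyadenylated as well as stem-loop mRNA. Of 7 such genes listed (HIST1H1C, HIST1H2AC, HIST1H2BC, HIST1H2BD, HIST1H2BJ, HIST1H2BK and HIST2H2BE), 4 were among the 5 highest, and HIST1H2BC and HIST2H2BE lay at 1.46 to 2.52 and 1.30 to 2.14 FPKM. HIST1H2BJ was lower, at 0.472, 0.795, 0.678 and 1.02 FPKM. An annotated transcript with a poly(A) signal (AATAAA or ATTAAA, transcript strand) in its last 40 bases existed for 23 of the 70 genes. Their median level was 1.58 FPKM, 12 of them were tested and 3 were at 0 in all libraries. For the 47 genes without one the median was 0.192 FPKM, 8 were tested and 17 were at 0 in all libraries. Among these 47 were all 32 genes whose models hold coding sequence only, HIST1H1C and HIST1H2BK included. No signal could be found for these, so the medians do not compare genes with and without a poly(A) signal. By comparison, 14 of 16 variant genes and 83.3% of all protein-coding genes had such a transcript end. This is a description of the annotation beside the levels. The part of RNA selection in the levels was not tested.

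**Figure D2:**
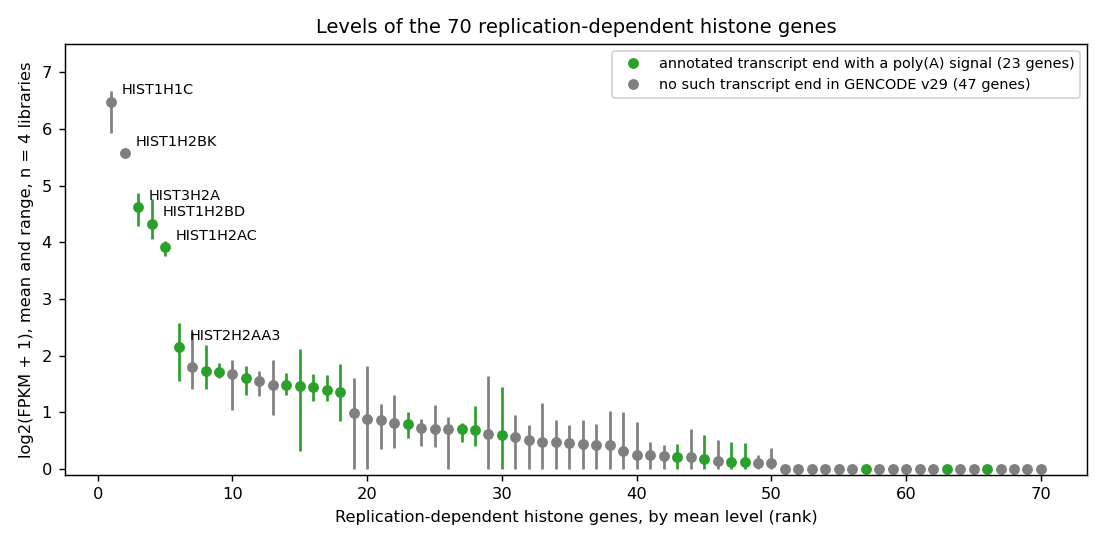
Mean level of each of the 70 replication-dependent genes over the 4 libraries, on the log2(FPKM + 1) scale (vertical), in order of rank (horizontal); vertical bars span the lowest to the highest library. Green marks the 23 genes with an annotated transcript end that carries a poly(A) signal and grey the other 47. Of the grey genes, 32 have models of coding sequence only, in which no signal could be found. The 5 highest genes stand apart from a low tail, and the last 20 genes lie at 0.

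Some members cannot be told from a near-identical copy by their coding sequence. When each coding sequence of the 70 replication-dependent genes was cut into overlapping 50-base windows, all windows also occurred in another gene for 8 genes, over 80% for 3 more, a smaller part for 25 and none for 34. Of the 20 tested genes, HIST2H2AA3 shared all windows. HIST1H2AM shared 86.3%, with HIST1H3J. That is an H3 gene whose annotated extent overlaps HIST1H2AM on the same strand, so it is not a copy. The 8 were HIST2H2AA3 and HIST2H2AA4, HIST2H4A and HIST2H4B, HIST2H3A and HIST2H3C, and HIST1H4J and HIST1H4K. The windows were taken from the coding part only and looked for in whole transcripts of the other histone genes. HIST1H4K was at 2.13 FPKM in si-NC replicate 1 and listed at 0 in the other 3 libraries, while its copy HIST1H4J was at 0 in all 4. Of the HIST2H2BF windows 44.9% occurred elsewhere, most of them in HIST2H2BE. How reads that fit several copies were assigned is not given in the sources used here, so single values of these genes are uncertain.

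The variant genes were led by H1F0 and by the H3.3 and H2A.Z genes. H1F0, which encodes the linker histone H1.0 known from slowly dividing and differentiated cells, was at 724 FPKM in si-NC replicate 1, 711 in si-NC replicate 2, 679 in si-152 replicate 1 and 753 in si-152 replicate 2. H3F3B was at 541, 571, 545 and 529 FPKM in the same order, and H3F3A, which encodes the same H3.3 protein, at 74.0, 66.5, 74.8 and 75.5. H3F3B exceeded H3F3A 7.01-fold to 8.59-fold. H2AFZ was at 433, 591, 478 and 494 FPKM, a range that overlapped that of H3F3B. H2AFV, the gene of the second H2A.Z protein, was at 63.3, 60.5, 57.0 and 46.4 FPKM, and H2AFZ exceeded it 6.84-fold to 10.7-fold.

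The other variants lay lower. H1FX, an H1 variant, was at 190, 229, 167 and 205 FPKM and H2AFX at 196, 214, 139 and 184, in the same order of libraries, and their ranges overlapped. H2AFX is the variant whose mRNA also carries the stem-loop, with 1044 more bases annotated after it and a poly(A) signal near that end. H2AFY, the macroH2A1 gene, was at 90.7, 107, 87.5 and 107 FPKM, and H2AFY2, the macroH2A2 gene, at 26.9, 26.9, 23.3 and 25.9. H2AFY exceeded H2AFY2 3.37-fold to 4.11-fold. H2AFJ was the lowest tested variant, at 3.37, 4.18, 4.27 and 4.58 FPKM. The other 6 variants stayed below 1 FPKM in every library. H1FNT and H1FOO, linker histones of male and female germ cells, and H2AFB1 were listed at 0 in all 4, and H2AFB2 and H2AFB3 did not exceed 0.262 FPKM. H3F3C reached 0.801 FPKM in si-NC replicate 2.

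**Figure D3:**
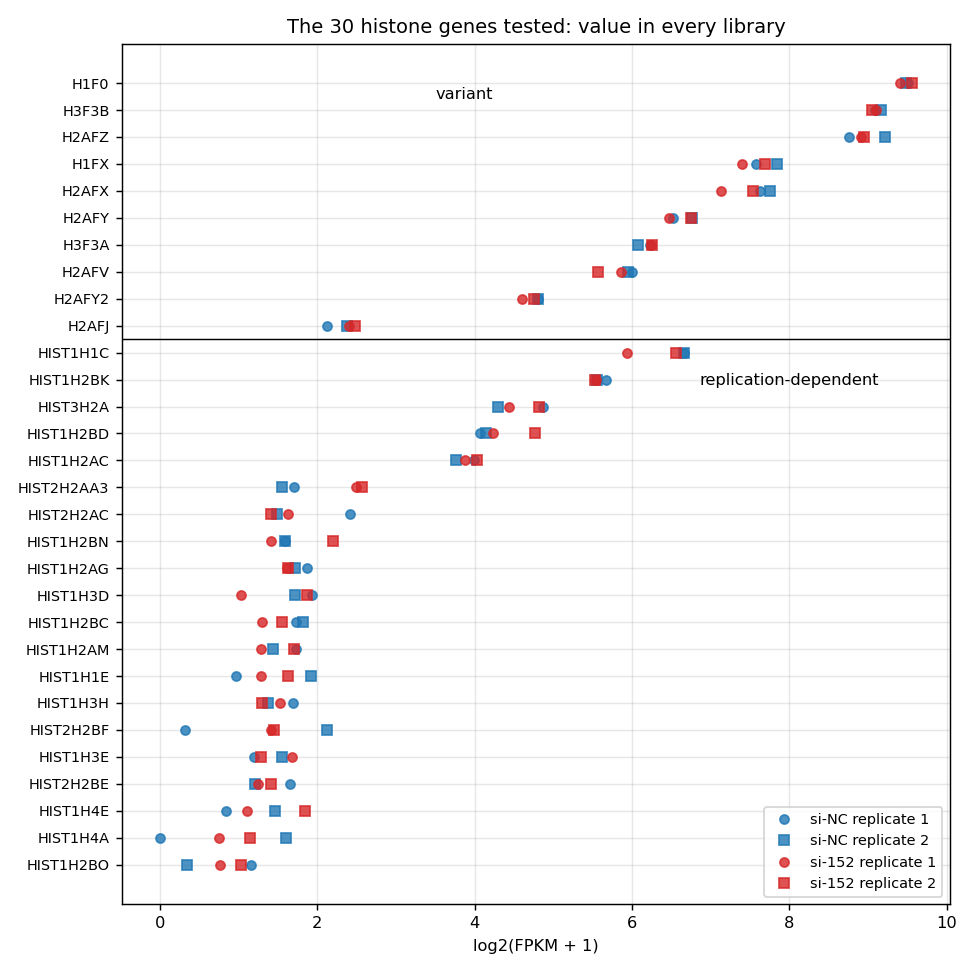
Value of the 30 tested histone genes in every library on the log2(FPKM + 1) scale (horizontal), variants above the line and replication-dependent genes below it, each ordered by mean. Circles are replicate 1, squares replicate 2, blue si-NC and red si-152. In HIST2H2AA3 both si-152 libraries lie to the right of both si-NC libraries, and in HIST1H1C the si-152 replicate 1 library lies apart to the left.

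To ask whether histone mRNA differed after LINC00152 knockdown, si-152 was compared with si-NC on the log2(FPKM + 1) scale, where 1 FPKM was added before taking log2 and the change of low genes is therefore understated. Only genes that reached 1 FPKM in 2 or more libraries were tested, which left 30 of the 86 histone genes, 20 replication-dependent and 10 variant. A gene was called at an unadjusted p under 0.05 and a fold above 1.5 on that scale. Of the 30 histone genes 1 was called, HIST2H2AA3, beside 1.66% of all 11222 genes tested (0.597% higher and 1.06% lower). No histone gene had an adjusted p under 0.05 in limma's test with Benjamini-Hochberg adjustment, which 2 of all genes (0.0178%) had. At an unadjusted p under 0.05 alone the count was also 1 of 30, beside 4.38% of all genes (1.89% higher and 2.5% lower). With 1 library left out in turn, the log2 difference of HIST2H2AA3 was 0.82 to 0.98. The other histone genes called then (HIST1H1C, HIST1H2BD, HIST1H3D, HIST1H4A, HIST1H4E, HIST2H2AC and HIST2H2BF) changed with the library left out. In these fits more genes were called among all genes too, so the added calls are not particular to histone genes.

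HIST2H2AA3 encodes an H2A protein and lies in the HIST2 cluster on chromosome 1. Its level was 2.27 and 1.93 FPKM under si-NC and 4.61 and 4.94 under si-152. Both si-152 values exceeded both si-NC values, and each was close to its replicate. Its log2 difference was 0.90 with an SE of 0.20, and its limma adjusted p was 0.468. This is a fold of 1.86 on the log2(FPKM + 1) scale, which understates the fold in plain FPKM for so low a gene. The difference was 0.78 between the libraries of replicate 1 and 1.02 between those of replicate 2. Since its coding sequence cannot be told from that of HIST2H2AA4, the values of both were also summed. HIST2H2AA4 had 0.505 and 0.322 FPKM under si-NC and 0.485 and 1.16 under si-152, and the sums were 2.78 and 2.25 against 5.09 and 6.11. The log2 difference of the sum was 0.91, with a limma adjusted p of 0.549.

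HIST2H2AC, which lies in the same chromosome 1 cluster as HIST2H2AA3, had a difference of the other sign that did not pass the test. It had 4.33 and 1.81 FPKM under si-NC and 2.08 and 1.66 under si-152, with a log2 difference of -0.44 (SE 0.29). The si-NC values were farther from each other than the means of the groups were. HIST1H1C had a log2 difference of -0.42 (SE 0.22), but the pairs of libraries gave -0.73 for replicate 1 and -0.10 for replicate 2, so that si-152 replicate 1 carried most of it. HIST1H2BD had a difference of 0.40 (SE 0.20), with 0.17 in replicate 1 and 0.62 in replicate 2. Neither HIST1H1C nor HIST1H2BD was called, and their log2 differences were of opposite sign.

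The other replication-dependent genes had log2 differences between -0.37 for HIST1H3D and 0.32 for HIST1H4E. HIST1H2BC, an H2B gene, had a difference of -0.35 (SE 0.20), with 2.32 and 2.52 FPKM under si-NC and 1.46 and 1.94 under si-152. Its si-152 values both lay below its si-NC values, without passing the test. The 3 other genes among the 5 highest had 0.07 (SE 0.18) for HIST1H2AC, 0.04 (SE 0.23) for HIST3H2A and -0.08 (SE 0.16) for HIST1H2BK. Among the other low H2A and H2B genes, HIST1H2AG had -0.17 (SE 0.20), HIST1H2AM -0.09 (SE 0.23), HIST1H2BN 0.21 (SE 0.26), HIST1H2BO 0.15 (SE 0.28) and HIST2H2BE -0.10 (SE 0.22). The H3 genes HIST1H3E and HIST1H3H had 0.11 (SE 0.23) and -0.12 (SE 0.21), and HIST1H1E, HIST1H4A and HIST2H2BF had 0.02 (SE 0.30), 0.15 (SE 0.43) and 0.21 (SE 0.46). Over the 20 tested genes the median was 0.03, and 11 were above and 9 below 0. The median of all genes was 0.02. Between the libraries of replicate 1 the median of the 20 genes was -0.17 and between those of replicate 2 it was 0.06, so that the sign depended on the pair.

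No variant histone gene was called. Of the 10 tested, 8 were below 0 and 2 above, with a median of -0.05, which turned to 0.06 after quantile normalization. The median of all genes was 0.02, and 54.2% of them were above 0. H2AFX had the largest difference of the variants, -0.35 (SE 0.21), with 196 and 214 FPKM in si-NC and 139 and 184 in si-152. Its si-152 values both lay below its si-NC values. H2AFV had -0.26 (SE 0.17), H1FX -0.17 (SE 0.21), H2AFY2 -0.13 (SE 0.16) and H2AFZ -0.06 (SE 0.25). The highest variants had differences well within their errors, -0.01 (SE 0.25) for H1F0 and -0.05 (SE 0.23) for H3F3B. H2AFJ and H3F3A were the variants above 0, at 0.19 (SE 0.20) and 0.10 (SE 0.17). An interval of about 2 SE on each side holds 0 for each of the 10 variants, and also holds differences of 0.2 or more in size.

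The si-NC and si-152 libraries did not overlap in 11 of the 30 histone genes, 4 higher and 7 lower in si-152. Among all genes tested 30.4% did not overlap, 16.5% higher and 13.9% lower.

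The genes that make and handle histone mRNA were compared next. Among 24 tested genes for histone mRNA transcription and 3′ processing, none was called and none had an unadjusted p under 0.05 in limma's test, and their median log2 difference was 0.13. SLBP, the stem-loop binding protein, had 49.5 and 48.5 FPKM under si-NC and 38.3 and 57.0 under si-152. NPAT, the coactivator of histone gene transcription, had 2.93 and 1.93 FPKM against 2.83 and 2.39. Both overlapped between the groups. Among 33 tested histone chaperones none was called, with a median of 0.07, and among 41 tested S phase genes none was called, also with a median of 0.07. No gene of these lists had an unadjusted p under 0.05 in limma's test. Among all genes 1.66% were called and 4.38% had such a p, and their median was 0.02. With lists this short, the absence of calls therefore tells little about these genes. PCNA, the sliding clamp of DNA replication, had 93.9 and 127 FPKM under si-NC and 99.5 and 132 under si-152.

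**Figure D4:**
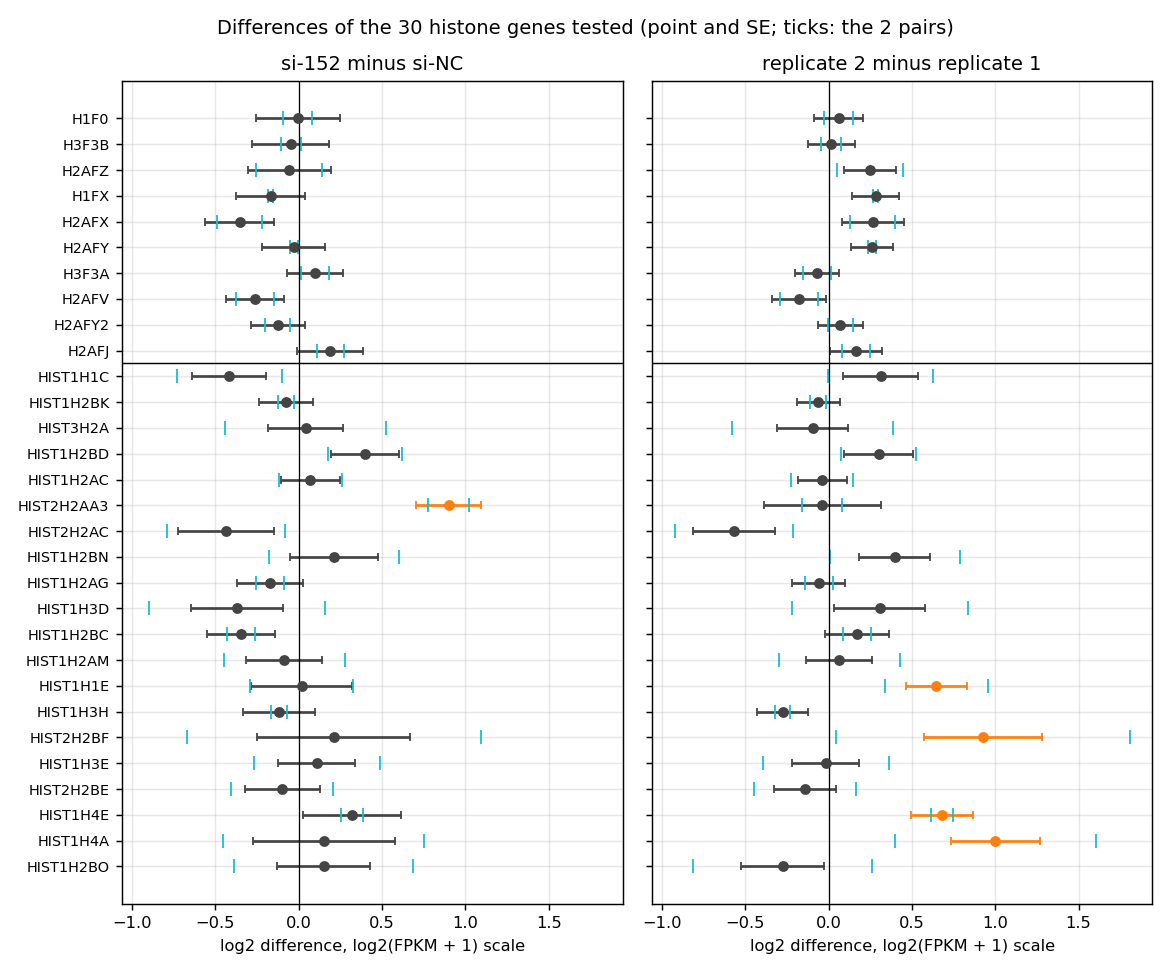
Log2 difference on the log2(FPKM + 1) scale (horizontal) of the 30 tested histone genes, si-152 minus si-NC on the left and replicate 2 minus replicate 1 on the right. Points are the estimates, bars the SE, blue ticks the 2 differences that each estimate averages, and orange marks genes with an unadjusted p under 0.05 and a fold above 1.5. On the left HIST2H2AA3 alone is orange, and on the right HIST1H1E, HIST1H4A, HIST1H4E and HIST2H2BF are.

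Replicate 2 was then compared with replicate 1 across both siRNAs, to set the difference between the siRNAs beside that between replicates. What a replicate number stands for beyond a biological replicate is not given in the sources used here. Of the 30 histone genes 4 were called, all higher in replicate 2, all replication-dependent and all below 4 FPKM, beside 3.11% of all genes (1.51% higher and 1.6% lower). HIST1H4A, among these, reached 1 FPKM in the replicate 2 libraries alone and so entered the test only through the group in which it was higher. Without it 3 of 29 were called. None had an adjusted p under 0.05 in limma's test, which 1 gene of all (0.00891%) had, and at an unadjusted p under 0.05 the count was again 4 of 30, all higher, beside 20.1% (7.78% higher and 12.3% lower). The 349 genes called in all were split into 169 higher and 180 lower. After scaling by median-of-ratios size factors the split was 296 and 73, and after quantile normalization 191 and 90, while 4 histone genes were called under each.

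HIST1H4A and HIST1H4E encode the same core histone, H4. HIST1H4A stood at 0 in si-NC replicate 1, at 2.04 FPKM in si-NC replicate 2, 0.684 in si-152 replicate 1 and 1.22 in si-152 replicate 2. The log2 difference was 1.00 (SE 0.27, limma adjusted p 0.177), with 1.60 within si-NC and 0.40 within si-152, and the choice of genes for the test by their level favoured this direction. HIST1H4E was at 0.798, 1.76, 1.15 and 2.60 FPKM in the same order, with a log2 difference of 0.68 (SE 0.19, limma adjusted p 0.177). Within si-NC it was 0.62 and within si-152 0.74. The summed H4 genes did not move with these 2, at 7.46, 4.62, 5.13 and 7.03 FPKM, since replicate 2 was lower within si-NC and higher within si-152. HIST1H4K and HIST1H4H were at 2.13 and 1.74 FPKM in si-NC replicate 1 and at 0 in si-NC replicate 2.

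HIST1H1E encodes linker histone H1.4 and HIST2H2BF an H2B. HIST1H1E was at 0.950, 2.78, 1.44 and 2.09 FPKM in the same order, with a log2 difference of 0.65 (SE 0.18, limma adjusted p 0.177). HIST2H2BF was at 0.246, 3.36, 1.65 and 1.73 FPKM. Its log2 difference was 0.92 (SE 0.35, limma adjusted p 0.212), but it was 1.81 within si-NC and 0.04 within si-152. The si-152 values lay between the si-NC values, so that the si-NC pair carried the difference. Without si-NC replicate 1, HIST1H4A was at 0.62, and HIST1H1E, HIST1H4E and HIST2H2BF were no longer called, at 0.48, 0.55 and 0.38. Other histone genes were called in that fit, in which more genes were called among all genes too. Without si-NC replicate 2, HIST1H1E, HIST1H4A and HIST2H2BF were no longer called, at 0.50, 0.77 and 0.59, and without si-152 replicate 2, HIST1H4E was no longer called, at 0.49. All 4 genes were below 1 FPKM in si-NC replicate 1, and none of them reached 1 FPKM in all libraries.

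None of the 5 highest clustered genes was called between the replicates. HIST1H1C had a log2 difference of 0.31 (SE 0.22), which was 0.00 within si-NC and 0.63 within si-152. HIST1H2BD had 0.30 (SE 0.21), HIST1H2AC -0.04 (SE 0.15), HIST1H2BK -0.06 (SE 0.13) and HIST3H2A -0.09 (SE 0.21). The low genes HIST1H2BN, HIST1H3H and HIST1H2BO had 0.40 (SE 0.21), -0.28 (SE 0.15) and -0.27 (SE 0.25), and HIST1H2AG, HIST1H2AM and HIST1H3E had -0.06 (SE 0.16), 0.06 (SE 0.20) and -0.02 (SE 0.20). The lowest was HIST2H2AC at -0.57 (SE 0.25), and HIST2H2AA3, the gene called between the siRNAs, had -0.04 (SE 0.35). The median of the 20 tested genes was 0.02, with 10 above and 10 below 0.

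No variant gene was called in the replicate comparison. Of the 10 tested, 8 were above 0, with a median of 0.12, which was -0.01 after quantile normalization. The median of all genes was -0.06, and 42.3% of them were above 0. H1FX had 0.28 (SE 0.14), H2AFX 0.27 (SE 0.19), H2AFY 0.26 (SE 0.13) and H2AFZ 0.25 (SE 0.16). H2AFV and H3F3A were below 0, at -0.18 (SE 0.16) and -0.07 (SE 0.13). For 10 histone genes the replicates did not overlap, 8 higher and 2 lower in replicate 2, beside 54.9% of all genes, 21.4% higher and 33.6% lower.

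Ribosomal protein genes, which also give short and abundant polyadenylated mRNAs, made up a larger share of the replicate 2 libraries. Of 79 tested, 78 were above 0, beside 42.3% of all genes, and 9 were called higher in replicate 2, beside 1.51%. Their median was 0.42, which was 0.05 after quantile normalization. Their share of all FPKM was 26.9% and 26.3% in the replicate 1 libraries of si-NC and si-152 and 32.6% and 29.3% in those of replicate 2. Between the siRNAs 75 of the 79 were below 0, none was called and the median was -0.19, which was -0.03 after quantile normalization. The FPKM of all genes summed to 463015.6 and 424754.5 in the replicate 1 libraries of si-NC and si-152. In those of replicate 2 it summed to 534311.1 and 507094.2. The part of these totals and of the ribosomal share in the histone values was not tested.

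Among the genes that make and handle histone mRNA, 1 of 24 was called in the replicate comparison, beside 3.11% of all genes. It was ZCCHC11, a uridylyltransferase, which was lower in replicate 2 at -0.74 (SE 0.16, limma adjusted p 0.177), with 8.70 and 9.20 FPKM in replicate 1 and 4.30 and 5.73 in replicate 2. With ZCCHC11, 4 of 24 had an unadjusted p under 0.05, beside 20.1% of all genes (12.3% lower). The other 3 all had negative differences. They were ERI1, an exonuclease that trims histone mRNA ends, at -0.40 (SE 0.14), CPSF2, a subunit of the cleavage factor, at -0.39 (SE 0.16), and CASP8AP2 at -0.47 (SE 0.16). SLBP had 0.27 (SE 0.16) and NPAT -0.30 (SE 0.15).

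Of the 33 chaperones 1 was called, beside 3.11% of all genes. UBN1, a subunit of the HIRA complex that deposits H3.3, was lower in replicate 2 at -0.62 (SE 0.19, limma adjusted p 0.182). Its partner UBN2 had -0.34 (SE 0.15), ATRX, which deposits H3.3 at repeats, -0.56 (SE 0.15), and SRCAP, which exchanges H2A.Z into nucleosomes, -0.53 (SE 0.19). SUPT6H and SPTY2D1 had -0.38 (SE 0.14) and -0.35 (SE 0.15). These 5 had an unadjusted p under 0.05 without passing the fold. With UBN1 this made 6 of 33, all lower, beside 20.1% of all genes (12.3% lower). The variants that these factors handle, H3F3A, H3F3B and H2AFZ, had log2 differences of -0.07, 0.02 and 0.25.

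None of the 41 S phase genes was called, beside 3.11% of all genes. With an unadjusted p under 0.05, PCNA at 0.42 (SE 0.13), GINS2 at 0.50 (SE 0.16) and FEN1 at 0.32 (SE 0.12) were above 0. CASP8AP2, POLA1 at -0.40 (SE 0.15) and WDR76 at -0.35 (SE 0.14) were below 0. These were 3 of 41 in each direction, beside 7.78% of all genes higher and 12.3% lower. PCNA was at 93.9 and 99.5 FPKM in replicate 1 and at 127 and 132 in replicate 2, without overlap. The median of the list was -0.04, close to the -0.06 of all genes.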

How the data were processed

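RNA of HCT116 cells was sequenced after si-NC or si-152 transfection, with 2 libraries per group, grouped by the labels. The authors deposited 1 table per library with a value per gene symbol, and the unit was inferred from the values to be FPKM. The submitters' processing notes name Trimmomatic, TopHat, HISAT2, HTSeq, DESeq and GRCh38, with no role given. Read counts were not analysed here, so limma on log2 values was used. Values were compared as log2(FPKM + 1) for the 11222 genes that reached 1 FPKM in 2 or more libraries, using limma 3.58.1 (R 4.3.3, mean-variance trend, no block), once for the siRNA and once for the replicate number, and the script was first tested on simulated data. The members and gene lists were chosen with earlier results of these data known. Named were all tested histone genes and, of the other lists (histone mRNA processing and transcription, chaperones, S phase), genes with an unadjusted p under 0.05, plus SLBP, NPAT and PCNA. Genes outside this rule (untested histone genes and cell markers) are named as values. P-values measure only the spread between these libraries. Stem-loops, poly(A) signals and shared windows were read from GENCODE release 29 transcripts, promoters from RefSeq (matched by symbol or synonym and an overlapping position), with Python 3.11.15. Alternatives were the pseudocount, the filter, the scaling, the trend, a replicate block and leaving out each library; the sum of HIST2H2AA3 and HIST2H2AA4 was added after the data were seen.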

Additional observations from a re-analysis of the deposited data

How the results depend on the processing

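HIST2H2AA3 was called between the siRNAs under all 11 alternatives. Leaving out 1 library, where the lone library is assumed to vary like the others, gave 242 to 546 calls over all genes between the siRNAs (186 in the fit reported) and 328 to 842 between replicates (349), most of them without si-152 replicate 2 (546) and without si-NC replicate 1 (842). With a pseudocount of 0.1 the replicate comparison gave 697. Over libraries left out, the median of the replication-dependent genes was -0.18 to 0.14 between the siRNAs and -0.07 to 0.19 between replicates, and that of the variants -0.136 to -0.0148 and 0.0212 to 0.140. The variant median between the siRNAs was -0.0725 with size factors and 0.0591 after quantile normalization. Between replicates it was 0.14 with a pseudocount of 0.1, 0.14 with no filter, 0.19 with size factors and -0.0138 after quantile normalization. Without si-NC replicate 1, HIST1H4A and HIST2H2BF turned to -0.65 and -0.69 between the siRNAs (up to 0.95 and 1.11 without si-NC replicate 2), and after quantile normalization H3F3B turned to -0.27 between replicates. The causes were not tested. Of 652 results for single genes, 609 kept direction and side of the threshold (unadjusted p of 0.05), 34 passed it newly, 6 lost it and these 3 turned, not counting 63 sign changes at p above 0.05 in both fits. HIST2H2BF was also lost with no filter. With at least 1 FPKM required in all 4 libraries, the 4 genes called between replicates were not tested.

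The replicate numbers are the same in both groups, and deviations of same-numbered libraries correlated at 0.52 across genes, but with 2 pairs the pairing cannot be settled. With a replicate block 209 genes were called between the siRNAs and 372 between replicates in the matching fit with the siRNA as block. Between the siRNAs 8 of 30 histone genes (H2AFV, H2AFX, HIST1H1C, HIST1H2BC, HIST1H2BD, HIST1H4E, HIST2H2AA3 and HIST2H2AC) then had an unadjusted p under 0.05, beside 16.9% of all genes, and between replicates 8 of 30, beside 33.4%. In these block fits the limma adjusted p of HIST2H2AA3 between the siRNAs was 0.0295. Between replicates those of HIST1H4A, HIST1H4E and HIST1H1E were 0.0474, 0.0347 and 0.0514. HIST1H4A entered the test only through the replicate 2 libraries, in which it was higher. The share of all genes with an adjusted p under 0.05 in the block fits is not given here, so these values are not read as a result about histone genes.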

Other observations

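Some histone genes have symbols outside the patterns used, and 3 were chosen after their values were seen. CENPA, the H3 variant of centromeres, had 17.6 and 17.7 FPKM under si-NC and 15.6 and 15.8 under si-152, without overlap, with a log2 difference of -0.16 (SE 0.16) in limma's test, which it did not pass. Its level lay below that of H3F3A and above the sum of the 14 clustered H3 genes in every library. H2BFWT, an H2B variant of the testis, and H2BFM were listed at 0 in all 4 libraries.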
